A study of Mus musculus with 22 samples.

Results

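The 39 protein-coding Hox genes were followed through poly(A) RNA-seq of mouse tissues and blood cells. Members were all rows whose gene name is Hox, a cluster letter from a to d and a paralog number, among 20674 protein-coding genes and 24911 rows in all. They comprise 11 Hoxa genes on chromosome 6, 10 Hoxb genes on chromosome 11, 9 Hoxc genes on chromosome 15 and 9 Hoxd genes on chromosome 2. Hox genes encode homeodomain transcription factors that give cells of the body axis their position. Genes with low paralog numbers lie at the 3′ end of a cluster and are used from the hindbrain backwards, and genes with high numbers lie at the 5′ end and are used in the lower trunk, limbs and genital region. Adult tissues keep much of this code, hair follicles use Hoxc13, and several members act in blood progenitors, where Hox proteins bind DNA with the TALE homeodomain cofactors Pbx and Meis.

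The study profiled 22 libraries, each the only one of its group, beside chromatin accessibility data that are not analysed here. The tissues were medulla oblongata (the lower hindbrain), back skin, putamen and sensorimotor cortex. The blood cells were basophils, the B lymphoma line CH12 (1 clone, bc5), 7 primary B-cell libraries and 9 CD4 T-cell libraries. The B-cell libraries were splenic B cells, taken per the labels from C57BL/6J spleen by negative selection, and 6 cultures. Of those, aBCD180, aCD40+IL4 and LPS+a-d-dextran carry these names in the labels, and the other cultures had LPS (bacterial lipopolysaccharide) alone, with IL21 or with IL4, both T-cell cytokines. The T-cell libraries were CD4+ T cells activated with concanavalin A (ConA), and 4 populations each sequenced as a MUT and an unmarked library. Those were follicular helper (Tfh), activated CD4+CD44+CXCR5-PD1-CD25- cells (non-Tfh), CD4+CD44+CXCR5+PD1+CD25+ follicular regulatory cells (Tfr) and CD4+ T cells with no further sort given. Tfh, non-Tfh and Tfr are called sorted T cells below. The labels do not say which gene is mutated in MUT, nor do they give the age, sex or number of animals, or a strain for the T cells, basophils and tissues. As no group had a second library, p-values below measure the spread between related libraries, which may be technical.

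Total expected counts ran from 30.8 to 147.9 M per library, with a median of 46.2 M. The marker genes of each labelled tissue or cell type were present, including Slc6a5 at 130 TPM in medulla, Lhx2 at 43.7 TPM in putamen and 79.8 TPM in cortex, Krt5 at 2933 TPM in skin and Mcpt8 at 12997 TPM in basophils. Among the T cells, the libraries labelled Tfh MUT and Tfr stood apart. The summed level of 5 B-cell markers was 641 TPM in Tfh MUT and 471 TPM in Tfr, against 88.9 to 123 TPM in the other 6 sorted or CD4+ T libraries and 5.9 TPM in ConA cells. The tests that use these libraries are given with them, and their counts without them.

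Of the 39 genes, 27 reached 1 TPM, the level called detected here, in some library, and Hoxa13, a gene of the distal limb, was at 0 in every library. Medulla and back skin each had 24 detected members, CH12 had 13, the Tfr library 7, the Tfh MUT library 6 and basophils 3, and the cortex had 0. Summed over the 39 genes, the level was 898 TPM in medulla, 311 TPM in back skin and 66.4 TPM in CH12. The sums lay at 11.3 to 44.0 TPM in the 8 sorted or CD4+ T libraries, 16.03 TPM in basophils, 2.22 to 6.03 TPM in primary B cells, 4.66 TPM in ConA cells, 8.76 TPM in putamen and 0.81 TPM in cortex. In such bulk samples, fewer cells of a type and less RNA per cell cannot be told apart.

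**Figure D1:**
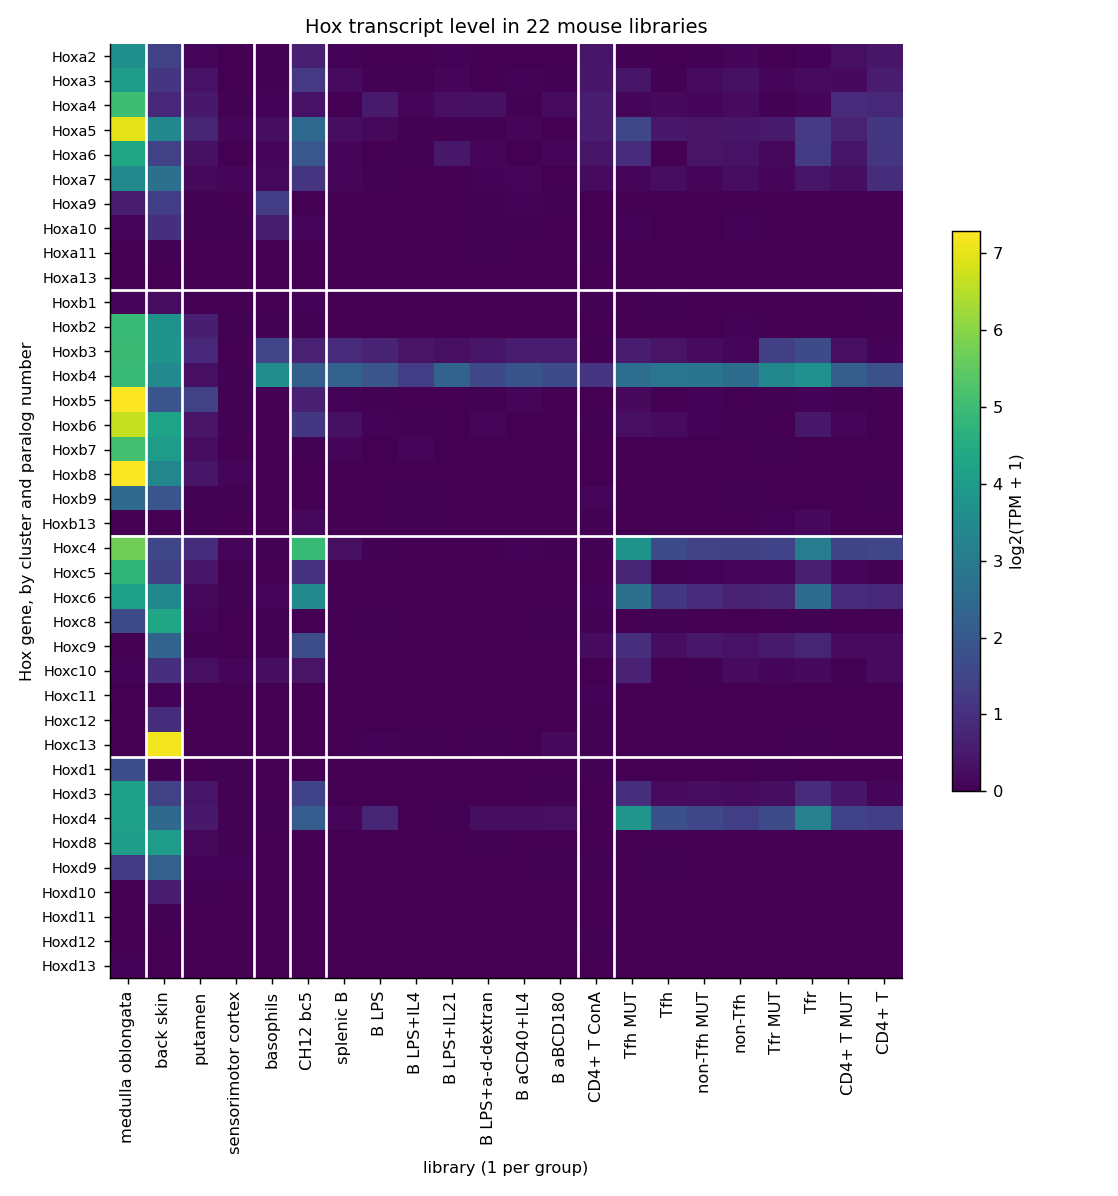
Level of Hox genes, as log2(TPM + 1), in the 22 libraries. Rows run by cluster and paralog number, white lines separate clusters and sample kinds, and medulla and back skin hold most of the signal at 898 and 311 TPM in sum.

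In the medulla, the anterior and middle parts of all 4 clusters were detected almost throughout, and the posterior parts hardly at all. Paralogs 1 to 3 had 7 of 8 members detected, paralogs 4 to 8 had 15 of 15, and paralogs 9 to 13 had 2 of 16. The middle block held 87.4% of the Hox TPM, the anterior block 11.8% and the posterior block 0.7%. By cluster, Hoxb held 59.5%, Hoxa 24.0%, Hoxc 10.7% and Hoxd 5.8%. Within each cluster the highest detected paralog was Hoxa7, Hoxb9, Hoxc8 and Hoxd9, and paralogs 10 to 13 summed to 0.15, 0, 0 and 0.06 TPM over all clusters.

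The leading gene in medulla was Hoxb5, at 155 TPM (95% Poisson interval of the counts 151 to 160), followed by Hoxb8, which in mice is known for its part in spinal sensory circuits and grooming, at 152 TPM (149 to 155). Hoxa5, which with Hoxc5 is known to maintain phrenic motor neurons in mice, had 126 TPM (122 to 130). Hoxb5 ranked 1227th of 17124 protein-coding genes above 0 in that library. Such intervals cover counting error only, not differences between animals. The next were Hoxb6 at 99.9 TPM, Hoxc4 at 51.0 TPM, Hoxb7 at 33.9 TPM and Hoxa4 at 31.5 TPM. Among the anterior genes that pattern hindbrain segments, Hoxb3 had 30.3, Hoxb2 29.1, Hoxd3 16.6, Hoxa3 15.2 and Hoxa2 11.3 TPM. Hoxd1 was lower, at 2.33 TPM, and Hoxb1, a gene of the fourth rhombomere in the embryo, was at 0.10 TPM on 4 counts. At the posterior edge the levels dropped in a step within a cluster: Hoxb8 had 152 TPM beside Hoxb9 with 4.67, and Hoxc6 had 16.6 beside Hoxc8 with 2.04. Hoxc9, which sets thoracic motor neuron identity, was at 0 counts in medulla, which allows up to 0.09 TPM (3 counts).

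In mm10, GENCODE M21 places Hoxb5 at chr11:96303336-96306121 and Hoxb8 at chr11:96281905-96285315 on the plus strand, and Hoxa5 at chr6:52201754-52204587 on the minus strand. The deposited gene models give 1 transcript per Hox gene in the members described here, and by GENCODE M21 no matched exon was shared between Hox genes. Exons of Hoxb2 and Hoxb3 overlap those of the antisense gene Hoxb3os by 953 and 2250 bases, and Hoxb5 overlaps Hoxb5os by 100 bases. Hoxa3, Hoxa4, Hoxa7, Hoxa11 and Hoxd3 also have antisense exons. Whether counting used strand is not given in the sources used here, so reads of these genes and their antisense partners cannot be told apart.

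The stretches directly before the start of both leading medulla genes that have an entry in the RefSeq promoter table are shown because Hoxb8 and Hoxa5 peak in the same libraries. In build GRCm38.p6, that of Hoxb8 is chr11:96281655-96281904 on the plus strand and that of Hoxa5 is chr6:52204588-52204837 on the minus strand. Capitals mark matches on either strand to TGATNNAT (a joint Hox and Pbx site), AGGTCA (the core of retinoic acid receptor sites), TATAAA and CCAAT.
Hoxb8: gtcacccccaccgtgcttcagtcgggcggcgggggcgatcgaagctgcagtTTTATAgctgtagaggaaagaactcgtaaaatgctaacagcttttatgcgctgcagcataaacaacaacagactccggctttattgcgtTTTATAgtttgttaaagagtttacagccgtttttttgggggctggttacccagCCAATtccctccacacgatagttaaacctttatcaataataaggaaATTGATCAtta
Hoxa5: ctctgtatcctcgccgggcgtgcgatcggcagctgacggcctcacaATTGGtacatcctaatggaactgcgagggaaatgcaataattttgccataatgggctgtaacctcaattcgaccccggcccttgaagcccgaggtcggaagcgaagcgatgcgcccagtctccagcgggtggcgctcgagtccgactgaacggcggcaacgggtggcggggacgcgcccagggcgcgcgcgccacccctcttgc
Hoxb8 held TGATNNAT, TATAAA at 2 places and CCAAT, and Hoxa5 held CCAAT. Over the 22 Hox genes in the table, 13.6% held TGATNNAT, 27.3% AGGTCA, 13.6% TATAAA and 59.1% CCAAT. Over all 27025 entries of the same length the shares were 7.9%, 13.8%, 13% and 34.5%. Median GC content was 56.8% with 12 CpG for the Hox genes, against 52.0% with 6 CpG for all entries. These are matches of letters, not binding sites.

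Against the forebrain libraries (putamen and cortex), 20 of the 39 Hox genes were higher in medulla by the size rule used in place of a test, a log2(TPM + 1) at least 2 above every comparison library. Of all 20674 protein-coding genes, 0.837% met that rule. By the same rule 0 Hox genes were lower, where 0.75% of all genes were. Hoxb5 had 155 TPM in medulla, against 1.66 TPM in putamen and 0.03 TPM in cortex. Hoxb8 had 152 TPM in medulla, against 0.32 TPM in putamen and 0.09 TPM in cortex. Hoxc4 had 51.0 TPM in medulla, against 0.92 TPM in putamen and 0.08 TPM in cortex. Hoxb9 was the lowest member to meet the rule, with 4.67 TPM in medulla and 0.02 TPM in each forebrain library. With 1 library per region, no test was possible, and leaving out the putamen or the cortex library left the count at 20.

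The putamen was not free of Hox reads. For the 19 Hox genes at 10 TPM or more in medulla, the putamen had 0.211 to 2.54% of the medulla level, with a median of 1.18%, and it was above the cortex in 19 of 19. The cortex had a median of 0.0687%. Of the 6 medulla and hindbrain markers, the glycine transporter gene Slc6a5 had 4.37% and the glycine receptor gene Glra1 3.13% of their medulla level in putamen. Phox2a, a gene of hindbrain visceral neurons, had 9.06% and the serotonin synthesis gene Tph2 5.26%. Chat, which striatal interneurons also express, had 121%. Of the 6, 5 were higher in putamen than in cortex, and Tph2 was not (8.24% of its medulla level in cortex). The Hox levels of putamen came with those of hindbrain markers in the same library, whose part in the result was not tested.

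**Figure D2:**
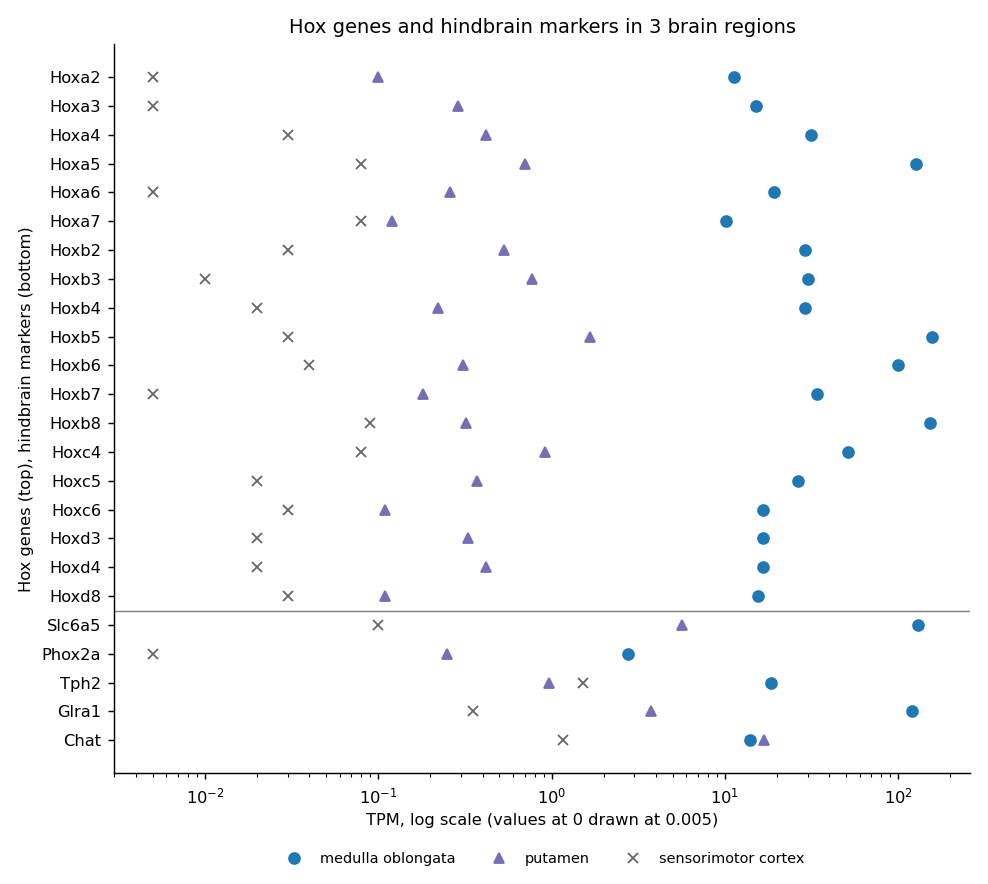
TPM on a log axis of the 19 Hox genes with at least 10 TPM in medulla (top) and hindbrain markers (bottom) in medulla, putamen and cortex. Putamen lies at 0.211 to 2.54% of medulla for the Hox genes and above cortex for all 19.

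The same size rule was applied to genes that work with Hox proteins, where 0.837% of all protein-coding genes were higher and 0.75% lower in medulla. At such shares a short list can have 0 members past the rule without differing from other genes. Of 9 TALE cofactors, 0 were higher and 0 lower in medulla. Meis2 had 37.1 TPM in medulla, 171 TPM in putamen and 27.3 TPM in cortex, and Meis3 had 35.8, 37.7 and 33.4 TPM in that order. Of 8 homeobox genes at the Hox flanks or in the ParaHox cluster, Evx1, which marks a class of spinal and hindbrain interneurons, was higher (3.22 TPM in medulla, 0.04 TPM in putamen and 0 in cortex). Of 14 retinoic acid and hindbrain segment genes, Aldh1a1, an enzyme that makes retinoic acid, was higher, at 226 TPM in medulla against 27.1 TPM in putamen and 27.5 TPM in cortex. Egr2, a hindbrain segment gene of the embryo and an activity gene of adult cortex, was lower at 0.20 TPM in medulla, against 16.5 and 17.3 TPM in putamen and cortex. Of the 10 trithorax and 16 Polycomb genes, which keep Hox clusters open or closed, 0 met the rule, which is near the share of all genes.

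Back skin had a more posterior profile led by a single gene. Hoxc13, a regulator of hair shaft keratin genes, had 142 TPM (139 to 145) at chr15:102921103-102928814 (mm10, GENCODE M21) and ranked 899th of 17036 protein-coding genes above 0. The next were Hoxc8 at 18.7, Hoxb6 at 17.6, Hoxb7 at 15.1, Hoxd8 at 14.9, Hoxb3 at 12.6 and Hoxb2 at 12.4 TPM. Paralogs 9 to 13 held 50.6% of the Hox TPM in skin with 5 of 16 detected, paralogs 4 to 8 held 39.7% with 14 of 15, and paralogs 1 to 3 held 9.7% with 5 of 8. Hoxc13 alone made up 142 of the 157 TPM of the posterior block. All 4 genes of paralog group 9 were detected, Hoxc9 at 3.97, Hoxd9 at 3.75, Hoxb9 at 2.78 and Hoxa9 at 1.54 TPM. Near the threshold lay Hoxa10 at 0.99, Hoxc10 at 0.97 and Hoxc12, which lies next to Hoxc13, at 0.94 TPM. The limb and genital genes were at or near 0: Hoxa13, Hoxb13, Hoxd12 and Hoxd13 had 0 counts in skin, and Hoxa11 and Hoxd11 had 0.02 TPM each.

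Set against all other 21 libraries, 2 Hox genes were higher in skin by the size rule, Hoxc13 and Hoxc8, where 3.98% of all protein-coding genes were, and 0 were lower (0.131% of all genes). Hoxc13 had at most 0.14 TPM elsewhere, in the aBCD180 B culture. Hoxc8 had 18.7 TPM in skin, with 2.04 TPM in medulla as the highest of the others. Without the medulla library, 9 Hox genes met the rule, and so did 4.38% of all genes. All 14 hair follicle genes were higher in skin, with hair keratins between 693 and 10038 TPM and Foxn1, a transcription factor of the hair shaft, at 94.7 TPM. Of 10 dermal patterning genes, Msx2 (128 TPM), Twist1 (21.5 TPM), Tbx15 (16.5 TPM) and Twist2 (10.1 TPM) were higher. Markers of keratinocytes (4 of 5), fibroblasts (5 of 6) and skeletal muscle (5 of 5) were higher too, and the part of each cell type in the Hox levels was not tested.

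Medulla and skin differed member by member. In medulla, 11 Hox genes were higher than in skin, where 14.2% of all protein-coding genes were, and 3 were lower, where 7.71% were. Hoxb5 had 155 TPM in medulla and 2.80 TPM in skin, a log2(TPM + 1) difference of 5.36. Hoxa4 had 31.5 and 0.80 TPM in that order, and Hoxc4 had 51.0 and 1.93 TPM. The 3 lower genes were Hoxc13 (0 counts in medulla, 142 TPM in skin), Hoxc8 (2.04 and 18.7 TPM) and Hoxc9 (0 and 3.97 TPM), all of the Hoxc cluster. Hoxd8 did not meet the rule, with 15.6 TPM in medulla and 14.9 TPM in skin. Within Hoxc, the highest of Hoxc4, Hoxc5 and Hoxc6 was Hoxc4 in medulla (51.0, 26.5 and 16.6 TPM in that order of genes) and Hoxc6 in skin (1.93, 1.61 and 9.68 TPM). Of the cofactors, Pbx3, Pbx4, Meis2, Meis3 and Pknox2 were higher in medulla. Each tissue had 1 library, so these are sizes of difference and not tests.

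**Figure D3:**
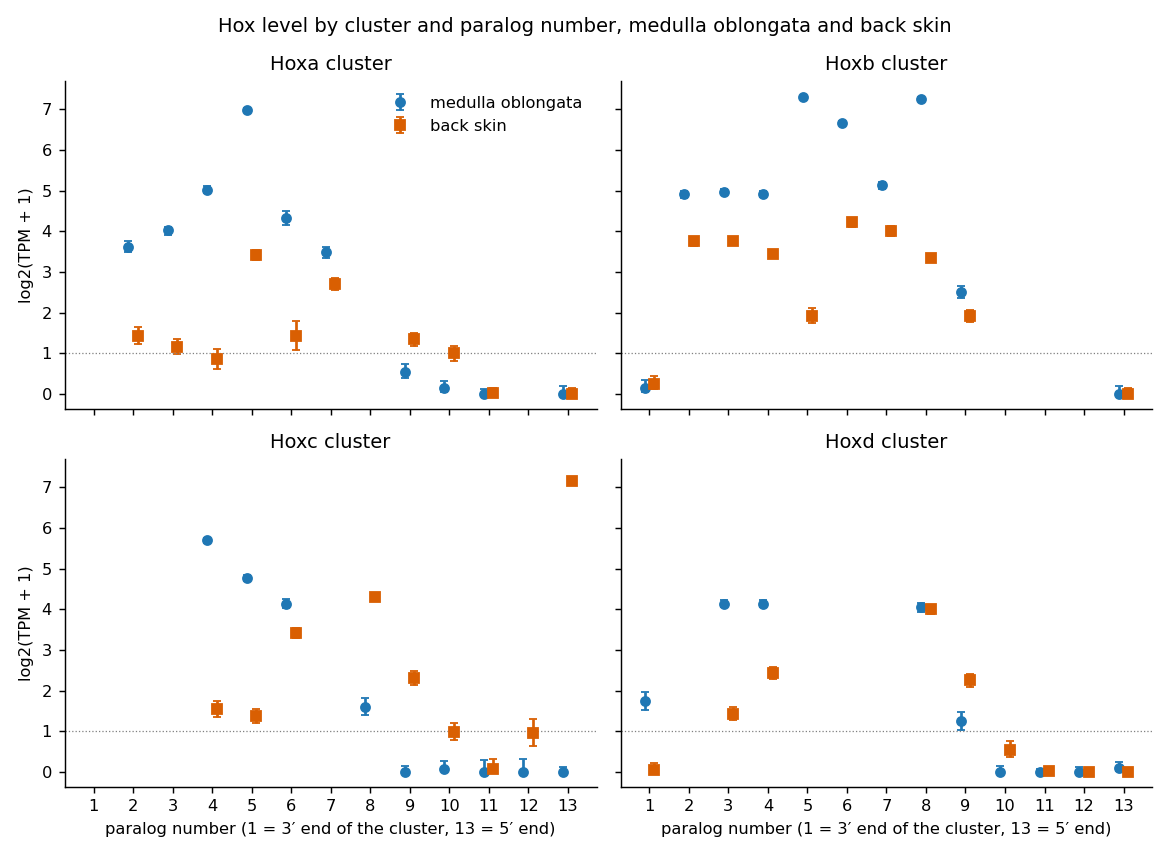
Level of Hox genes as log2(TPM + 1) against their paralog number, with a panel per cluster, for medulla (circles) and back skin (squares). Bars are 95% Poisson intervals of the counts and the dotted line is 1 TPM, with Hoxb5 at 155 TPM leading in medulla and Hoxc13 at 142 TPM in skin.

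By Pearson correlation of log2(TPM + 1) over the 22 libraries, the non-Hox genes most like Hoxb8 were Ebf2 (0.998), Agtr2 (0.996) and Aplnr (0.994), and Ebf2 also led for Hoxa5 (0.922) and Hoxb6 (0.981). Those most like Hoxb5 were Lbx1 (0.988), Tmprss11d (0.987) and Foxd3 (0.987). For Hoxc13 they were Krt39, Krtap24-1 and Dsg4, each at 1.0 to 3 digits, and for Hoxc8 they were Nox4 (0.996), Pmp2 (0.995) and Slc4a9 (0.993). Each value rests on 1 or 2 tissue libraries that are far above the rest, so it describes a shared peak.

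Hoxb4, known for expanding blood stem cells when it is forced on, was the 1 member detected in all 18 blood libraries. Its order was Tfr (11.9 TPM), basophils (11.04), Tfr MUT (9.61), Tfh (6.34), non-Tfh MUT (6.12), Tfh MUT (5.18) and non-Tfh (5.02). Below these came the 7 primary B libraries (1.5 to 3.97 TPM), CH12 (3.65), CD4+ T MUT (3.43), CD4+ T (2.53) and ConA (1.16). The counting intervals of the Tfr library and of basophils overlapped. Its neighbour Hoxb3 was detected in the Tfr (2.24 TPM), basophil (1.86 TPM) and Tfr MUT (1.62 TPM) libraries and was at 0.24 to 0.82 TPM in primary B cells.

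**Figure D4:**
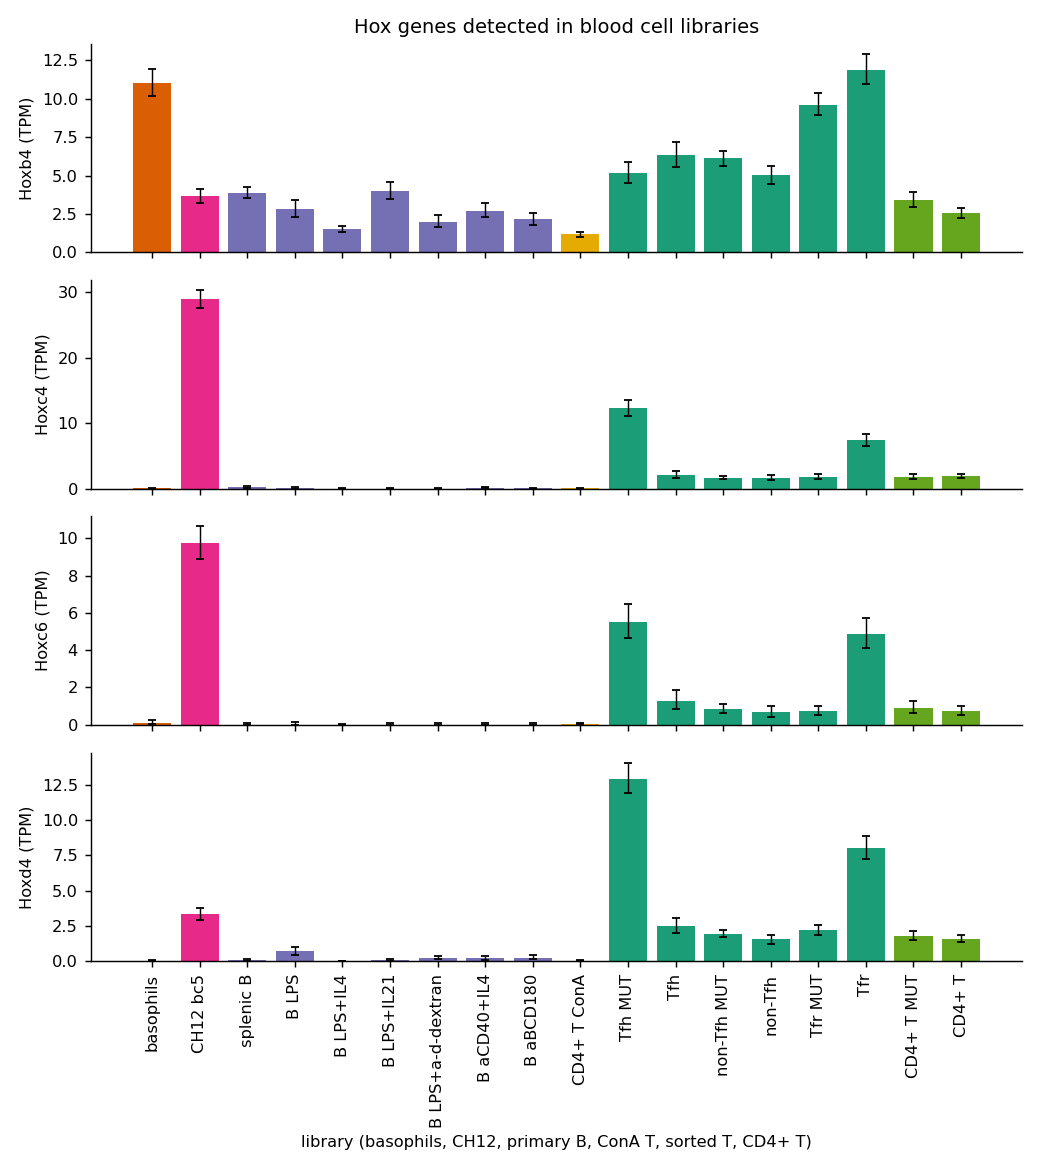
TPM of Hoxb4, Hoxc4, Hoxc6 and Hoxd4 in the 18 blood cell libraries, with 95% Poisson intervals of the counts. Hoxb4 is above 1 TPM in all, and Hoxc4, Hoxc6 and Hoxd4 are highest in CH12, Tfh MUT and Tfr.

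Most Hox genes that passed the count filter were lower in primary B cells than in CD4 T cells. Of the 39 members, 8 passed edgeR's count filter in this comparison of 7 B with 9 T libraries, and 7 of the 8 were lower in B cells, where 22.5% of the 12437 genes tested were lower and 46.4% were called in either direction. The filter keeps genes counted in enough libraries, whichever side these are on. Hoxa5, Hoxc4, Hoxc6 and Hoxd3, with means of 0 to 0.06 TPM in B cells, passed it through the T libraries. A call of lower in B cells was nearly set in advance for them, and these 8 do not speak for all 39. Hoxb4 averaged 2.71 ± 0.94 TPM in B cells (SD, n = 7) and 5.70 ± 3.37 TPM in T cells (n = 9). Its log2 fold change was -0.93 ± 0.35 (SE, edgeR adjusted p = 0.0393), and the groups overlapped. Without the Tfh MUT and Tfr libraries that call was lost (-0.74, edgeR adjusted p = 0.111). Of the B libraries 6 were activated cultures, while of the T libraries only ConA cells are labelled with an activating agent. Cell type was thus not separated from culture and activation. Hoxb4 had 3.89 TPM in splenic B cells, against 2.53 in CD4+ T, 3.43 in CD4+ T MUT and 1.16 TPM in ConA cells. The other called genes were lower in splenic B cells than in either CD4+ T library. Hoxa5 averaged 0.06 ± 0.06 TPM in B cells and 0.79 ± 0.57 TPM in T cells, with no overlap (highest B 0.18, lowest T 0.30 TPM). Its log2 fold change was -3.52 ± 0.64 (edgeR adjusted p = 0.000436).

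Hoxc4 averaged 0.05 ± 0.09 TPM in B cells and 3.40 ± 3.90 TPM in T cells. It was at 0 in 3 of the 7 B libraries and highest in splenic B cells (0.24 TPM). The T libraries ran from 0.02 TPM in ConA, inside the B range, to 12.3 TPM in Tfh MUT. The fitted change was -5.83 ± 1.13 (edgeR adjusted p = 0.000741). Hoxd4, a retinoic acid responsive hindbrain gene, averaged 0.21 ± 0.23 TPM in B cells and 3.60 ± 4.14 TPM in T cells, a log2 fold change of -4.0 ± 1.03 (edgeR adjusted p = 0.00539). In B cells its highest value was 0.68 TPM, in the LPS culture. Hoxc6 was listed at 0 in 6 of 7 B libraries and at 0.01 TPM, 1 count, in splenic B cells, against 0.05 to 5.49 TPM in T cells (edgeR adjusted p = 1.97e-05). Hoxd3 was at most 0.02 TPM in B cells and 0.01 to 0.97 TPM in T cells (edgeR adjusted p = 0.000179). No fold is given for these genes because B cells had almost no counts. Hoxb3 averaged 0.47 ± 0.20 TPM in B cells and 0.57 ± 0.80 TPM in T cells and did not pass (-0.12 ± 0.72, edgeR adjusted p = 0.907). Apart from Hoxb4, the calls held without the Tfh MUT and Tfr libraries.

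The promoters of the blood members that are in the RefSeq table are shown here, since Hoxb4 was in every blood library while Hoxc4 and Hoxd4 were high in the same libraries. In GRCm38.p6 they are chr11:96318017-96318266 for Hoxb4, chr15:103034145-103034394 for Hoxc4 and chr2:74721728-74721977 for Hoxd4, all on the plus strand, with the same motifs in capitals. The genes Hoxc4 and Hoxd4 of GENCODE M21 begin upstream of these RefSeq starts.
Hoxb4: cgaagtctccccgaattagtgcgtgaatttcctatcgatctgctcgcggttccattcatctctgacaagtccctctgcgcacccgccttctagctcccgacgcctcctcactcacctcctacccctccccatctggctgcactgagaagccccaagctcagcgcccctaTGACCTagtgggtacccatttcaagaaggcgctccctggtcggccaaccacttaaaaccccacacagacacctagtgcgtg
Hoxc4: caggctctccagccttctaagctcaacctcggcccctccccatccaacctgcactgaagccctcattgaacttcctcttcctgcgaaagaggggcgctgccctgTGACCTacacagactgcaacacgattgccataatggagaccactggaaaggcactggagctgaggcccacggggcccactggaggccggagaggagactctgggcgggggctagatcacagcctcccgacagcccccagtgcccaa
Hoxd4: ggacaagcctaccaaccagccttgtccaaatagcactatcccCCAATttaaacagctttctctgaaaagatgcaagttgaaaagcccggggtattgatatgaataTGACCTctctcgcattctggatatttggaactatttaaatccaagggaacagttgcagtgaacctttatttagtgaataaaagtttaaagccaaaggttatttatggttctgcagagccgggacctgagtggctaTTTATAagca
All 3 held a reverse AGGTCA, beginning 81 bases before the start in Hoxb4, 146 in Hoxc4 and 145 in Hoxd4, a motif that 13.8% of all entries hold. Hoxd4 also held TATAAA and CCAAT. GC content was 58.0% for Hoxb4, 62.0% for Hoxc4 and 40.4% for Hoxd4.

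Hoxc4, Hoxc6 and Hoxd4 of the T-cell libraries ran alongside B-cell genes in those libraries, a relation looked at after the values were seen. Hoxc4 had 12.3 TPM in Tfh MUT and 7.36 TPM in Tfr, against 1.59 to 2.12 TPM in the other 6 sorted or CD4+ T libraries. Hoxd4 had 12.95 and 8 TPM in those libraries, against 1.53 to 2.45 TPM, and Hoxc6 had 5.49 and 4.85 TPM, against 0.66 to 1.29 TPM. The 5 B-cell markers, whose sums are given above, were all detected in each of the 8 libraries, with Cd79a at 234 TPM in Tfh MUT and 171 TPM in Tfr, against 34.4 to 46.3 TPM in the other 6. The ratio of Hoxd4 to Hoxc4 stayed between 0.804 and 1.25 in the 8. Hoxb4 did not share the pattern, with 5.18 TPM in Tfh MUT and 11.9 TPM in Tfr, against 2.53 to 9.61 TPM in the other 6.

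Rgs13, known from germinal centre B cells, was also high in these libraries, with 114 TPM in Tfh MUT and 68.0 TPM in Tfr, against 12.51 to 19.3 TPM in the other 6. It belongs to a list of such genes that was also chosen after the values were seen. Of the others, S1pr2, which follicular T cells also use, ran from 5.98 to 44.2 TPM, Mybl1 from 0.32 to 1.43, Nuggc from 0 to 0.12 and Gcsam from 0 to 0.02 TPM. Primary B cells, with Cd79a at 536 to 3543 TPM, had Hoxc4 at 0 to 0.24 TPM. ConA cells, with Cd79a at 0.84 TPM, had Hoxc4 at 0.02, Hoxd4 at 0.01 and Hoxc6 at 0.05 TPM. The lower Hoxc4, Hoxc6 and Hoxd4 of B cells against T cells goes with B-cell genes in the T libraries, and the part of these in the result was not tested.

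Sorted CD44+ T cells were compared with CD4+ T cells in a fit with the mutant label as a term. Of the 39 members 14 were tested, and 3 were called, where 24.8% of the 13064 genes tested were. Hoxb4 was higher, at 7.36 ± 2.77 TPM in sorted cells (SD, n = 6) and 2.98 ± 0.64 TPM in CD4+ T cells (n = 2), with no overlap (lowest sorted 5.02, highest CD4+ 3.43 TPM). Its log2 fold change was 1.00 ± 0.24 (edgeR adjusted p = 0.0303), where 13.4% of all genes were higher. Hoxa4 was lower, at 0.09 ± 0.05 TPM in sorted cells and 0.79 ± 0.03 TPM in CD4+ T cells (-3.45 ± 0.52, edgeR adjusted p = 0.00712). Hoxa7 was lower by 1.91 ± 0.49 on the log2 scale, at 0.16 ± 0.10 TPM in sorted cells and 0.57 ± 0.52 TPM in CD4+ T cells (edgeR adjusted p = 0.0368), and 11.4% of all genes were lower. The Hoxa7 values overlapped, since CD4+ T MUT had 0.20 TPM and Tfr 0.34 TPM. Hoxc4, Hoxc6 and Hoxd4 did not pass, with fitted changes of 0.75 ± 0.77, 0.96 ± 0.85 and 1.02 ± 0.73.

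Without the Tfh MUT and Tfr libraries, 8 of the 14 members were called, where 50.1% of all genes tested were: Hoxb4 (1.04) and Hoxb3 (1.43) higher, and 6 lower, among them Hoxa3 (-2.09), Hoxa4 (-3.56), Hoxa5 (-1.43), Hoxa6 (-3.78) and Hoxa7 (-2.04). Of all genes, 25.9% were higher and 24.2% lower in that run (6541 called in all). That run leaves 1 Tfh and 1 Tfr library, so few libraries measure its spread and its calls are not a check of the main fit. Leaving out either CD4+ library leaves 1 on that side, so each call of this comparison rests on that pair. Leaving out the non-Tfh, the non-Tfh MUT or the Tfr library left 1 Hox call, and leaving out the Tfh MUT library gave 5. The number of all genes called, 3242 in the main fit, also moved with single libraries left out, as given under processing below. These shifts are therefore not read as particular to Hox genes.

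Between MUT and unmarked libraries, 0 of 14 members tested were called by edgeR, where 0.0% of 13064 genes were (0 genes). At an unadjusted p under 0.05 edgeR gave 1 member, Hoxa7 (log2 fold change -1.61 ± 0.49), and 192 genes. DESeq2 called 0 members and 2 genes, and limma 0 of each. Without the Tfh MUT and Tfr libraries edgeR called 431 genes and 0 members. In that run the MUT effect rests on the non-Tfh and CD4+ T pairs, as Tfh and Tfr have 1 library each. In the main fit Hoxb4 differed by 0.06 ± 0.20. The fitted change of Hoxc4 was 0.09 ± 0.72, that of Hoxc6 0.09 ± 0.78 and that of Hoxd4 0.29 ± 0.65.

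Of 6 TALE cofactors tested, 1 was higher and 3 were lower in B than in T cells, where 23.9% of all genes were higher and 22.5% lower. As for the Hox genes, cell type was not separated from culture and activation in this comparison. Meis3 was lower (-3.40 ± 0.41, edgeR adjusted p = 1.06e-05), with 1.45 to 9.56 TPM in B cells and 8.20 to 67.2 TPM in T cells. Pbx2 and Pknox1 were lower by 0.86 and 0.59 on the log2 scale. Of 16 Polycomb genes, 2 were higher in B cells (Ezh2 by 1.52 and Suz12 by 0.76, both of the PRC2 complex) and 8 lower, among them Cbx2, Cbx7 and Cbx8, which encode PRC1 readers of the Polycomb mark, and Ezh1, Pcgf2, Phc3 and Ring1. The median log2 fold change of the genes tested was -0.72 for the TALE and -0.38 for the Polycomb list, against 0.01 over all genes. Of 10 trithorax genes Wdr5 was higher and the histone demethylase genes Kdm6a and Kdm6b lower, and of 5 retinoic acid genes tested the receptor gene Rarg was lower. Without the Tfh MUT and Tfr libraries, 22.2% of all genes were higher and 20.3% lower in B against T. The list counts there were 2 TALE genes higher and 3 lower, 2 Polycomb genes higher and 5 lower, and 1 trithorax gene higher and 2 lower. Cbx2, Cbx7, Ring1 and Kdm6a no longer passed in that run (edgeR adjusted p 0.0575 to 0.0632). In sorted against CD4+ T cells, 13.4% of all genes were higher and 11.4% lower. There, Pbx3 (2.13 ± 0.27) and Pbx4 (1.65 ± 0.32) were higher and Pknox1 lower (-0.68 ± 0.10), and Ezh2 (1.26) and Pcgf2 (2.93) were higher. Dot1l of the trithorax list was lower (-0.42), and of 7 retinoic acid and segment genes Egr2 was higher (1.99) and the receptor gene Rara lower (-0.69). Each of these genes kept its direction without the Tfh MUT and Tfr libraries, where 25.9% of all genes were higher and 24.2% lower. With 1 Tfh and 1 Tfr library left, that run is not a check of the main fit. The list counts in that run were 3 TALE genes higher and 2 lower, and 2 Polycomb genes higher and 5 lower. For the trithorax list 0 were higher and 6 lower, and for the retinoic acid and segment list 3 were higher and 1 lower. Between MUT and unmarked T cells 0 genes of these lists were called, and 0 without those libraries.

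CH12 cells carried the widest Hox set of the blood libraries. Hoxc4 had 29.0 TPM in CH12, with 1817 counts, and 0 to 0.24 TPM in the 7 primary B libraries. Hoxc6 had 9.73 TPM in CH12 and at most 0.01 TPM in primary B cells. Hoxa5 had 4.67 TPM in CH12 and 0 to 0.18 TPM in primary B cells. These 3 members met the size rule, where 1.55% of all genes were higher in CH12, and 0 were lower (0.856% of all genes). Below the rule lay Hoxd4 at 3.33, Hoxa6 at 2.91, Hoxc9 at 2.27, Hoxd3 at 1.75, Hoxa3 at 1.32, Hoxb6 at 1.28, Hoxa7 at 1.15 and Hoxc5 at 1.04 TPM in CH12. Hoxb4 was at 3.65 TPM in CH12, inside the primary B range of 1.5 to 3.97 TPM. At a pseudocount of 0.1, with at least 1 TPM in CH12, 11 members were higher (2.57% of all genes), and at a difference of 1 likewise 11 (4.08% of all genes). Meis1 was at 0 in CH12, and Pcgf2 was the 1 Polycomb gene of 16 that was higher.

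Basophils, granulocytes of allergic responses, had 3 detected members, Hoxb4, Hoxb3 (1.86 TPM) and Hoxa9. Hoxb4 had 11.04 TPM (605 counts) in basophils, against 1.16 to 11.9 TPM in the 16 primary lymphocyte libraries. Hoxa9, a gene of blood progenitors and myeloid cells, had 1.52 TPM (105 counts) in basophils and at most 0.06 TPM in primary lymphocytes. Hoxa10, its neighbour, had 0.52 TPM (28 counts) in basophils and at most 0.06 TPM in lymphocytes. By the size rule 0 members were higher (2.21% of all genes) and 0 lower (0.455%), and 1 member was higher at a pseudocount of 0.1 (2.88% of all genes). Meis1, the cofactor known to act with Hoxa9, was higher, at 11.9 TPM in basophils against at most 0.63 TPM in B cells and 0.13 TPM in T cells. Of 6 blood progenitor markers Cd34 (17.3 TPM) and Gata2 (1761 TPM) were higher in basophils, while Flt3 was at 0.53 TPM, and 4 of 5 myeloid markers were higher, with Mpo at 289 TPM. The part of such cells in the Hox levels was not tested.

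In ConA cells against the other 8 T libraries, 0 Hox genes met the rule in either direction, where 0.566% of all genes were higher and 0.759% lower. In splenic against activated B cells, 0 met it, where 0.827% were higher and 0.184% lower. Hoxb3 had 0.82 TPM in splenic B cells and 0.24 to 0.62 TPM in the 6 activated cultures.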

How the data were processed

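The data are poly(A) RNA-seq of 22 mouse libraries, prepared per the labels' protocols from 0.5 M cells where cultured and read for 50 cycles. Each deposited table gives 3 values for a gene, per the file headers. The expected count is the number of reads RSEM assigned, as deposited and not normalized. The TPM, which the authors computed, adds to the same total in every library. The deposited FPKM was not used. The submitters' processing notes name mm10 as the build and STAR, RSEM, bedtools and CASAVA 1.8.2 as tools, and their settings are not given in the sources used here. All 4237 rows that are not protein-coding were at 0 and were left out. Of the Hox expected counts above 0, 95.4% were whole (within 1e-09), and all counts were rounded for the count models.

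Groups came from the labels. The members, gene lists and tests were chosen with earlier results of these data known. The rule named the 39 members, the list genes that passed in a comparison, and for the 3 highest Hox genes of medulla and of skin the 3 most like genes, and some of these genes are not reported here. Genes kept by filterByExpr were scaled by TMM and tested by the quasi-likelihood method of edgeR 4.0.16 (R 4.3.3), at a Benjamini-Hochberg adjusted p of 0.05 over all genes tested, for 7 primary B against 9 CD4 T libraries, 6 sorted against 2 CD4+ T libraries with the mutant label as a term, and 4 MUT against 4 unmarked libraries with population as a term. Where a side had 1 library, a size rule replaced the test: log2(TPM + 1) at least 2 above or below every comparison library. Intervals are exact 95% Poisson intervals of the expected counts, turned into TPM, and cover counting error only. The alternatives tried were DESeq2 1.42.0, limma 3.58.1 on log2(TPM + 1), no count filter, scaling by RLE, no covariate, CPM scaled by TMM in place of TPM, a pseudocount of 0.1 (where the higher side also had to reach 1 TPM), a difference of 1, a TPM minimum of 10, other TPM or count limits for detection, and each library left out. The edgeR tests were run on simulated counts with 100 genes changed 2-fold and 100 changed 4-fold. In B against T, 41% and 60% of these were recovered, with 5 false calls. For sorted against CD4+ T the values were 48% and 78% with 7 false calls. For MUT against unmarked they were 55% and 87% with 9 false calls, so many 2-fold changes would be missed. Exons came from GENCODE M21 and promoters from RefSeq (GRCm38.p6), where 22 of the 39 members have an entry. Figures were drawn with matplotlib 3.10.9, intervals came from scipy 1.17.1, and tables were handled in pandas 2.3.3.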

Additional observations from a re-analysis of the deposited data

Results flagged for a closer look

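The MUT and unmarked libraries of Tfh and Tfr cells differed in opposite directions by at least 1 on the log2(TPM + 1) scale in both populations for 3 Hox genes, which is why they are listed here. As MUT minus unmarked, Hoxc4 differed by 2.09 in Tfh (12.3 TPM in MUT, 2.12 TPM in unmarked) and by -1.59 in Tfr (1.77 TPM in MUT, 7.36 TPM in unmarked). Hoxc6 differed by 1.5 in Tfh and by -1.76 in Tfr. Hoxd4 differed by 2.02 in Tfh and by -1.49 in Tfr. Hoxa5 (1.06 in Tfh, -0.69 in Tfr) and Hoxa6 (0.93 and -1.12) also had opposite signs but were under that size in one of them. In non-Tfh and CD4+ T cells the Hoxc4 differences were 0.04 and -0.07. Each is 1 pair of libraries, so the difference between populations was not tested. Cd79a, a B-cell gene, ran the same way, with 234 TPM in Tfh MUT and 46.3 TPM in Tfh, and with 41.3 TPM in Tfr MUT and 171 TPM in Tfr, and its part in these differences was not tested.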

How the results depend on the processing

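No paired analysis was possible because the labels carry no replicate numbers, apart from MUT against unmarked, where population as a term pairs the libraries of the 4 populations (0 genes called, and 0 without that term). The medulla against forebrain and splenic against activated B counts kept their side in all 12 and 8 recomputed values. In skin, 9 members were higher without the medulla library, in place of 2. Medulla against skin gave 17 higher at a difference of 1, in place of 11. For basophils 1 was higher at a pseudocount of 0.1 and 1 at a difference of 1. For CH12, 11 were higher under each of these and 1 at a TPM minimum of 10. For ConA 2 were lower at a pseudocount of 0.1, where Hoxc6 missed the limit of 1 TPM in the lowest of the other T libraries (0.66 TPM), and 2 at a difference of 1. Detected members in any primary lymphocyte, 8 at 1 TPM, were 21 at 0.1 TPM, 4 at 5 TPM and 18 at 10 counts, and 12 in skin at 5 TPM, in place of 24. In B against T, the 7 called of 8 members tested (5773 genes called) became 12 of 36 with no filter (6427 genes), 14 of 20 with DESeq2 (7241 genes) and 4 of 7 with limma (4971 genes). In sorted against CD4+ T, 3 called members became 1 with limma and 8 without the Tfh MUT and Tfr libraries (6541 genes, in place of 3242); leaving out single libraries gave 0 to 5 members and 545 to 5332 genes. The lowest came without a CD4+ T library. MUT against unmarked, at 0 genes, gave 2 with DESeq2, 431 without the Tfh MUT and Tfr libraries and 0 to 24 with single libraries left out. The Hoxb4 call in B against T was lost under 13 of its alternatives (adjusted p 0.0531 to 0.111). Of the recomputed values, 192 of 208, 179 of 217 and 208 of 212 kept their side in the fits of B against T, sorted against CD4+ T, and MUT against unmarked. Causes of these shifts were not tested. Leaving out those libraries together was decided once the values were known. It leaves 1 Tfh and 1 Tfr library, so few libraries measure the spread in the fits within T cells. Levels under about 0.1 TPM rest on a few counts.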

Other observations

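Hoxc13 had 8 counts in the aBCD180 B culture and 2 counts each in the LPS, LPS+IL4 and LPS+a-d-dextran cultures, 0.14, 0.05, 0.02 and 0.04 TPM. The 14 hair follicle genes summed to 30.3 TPM in aBCD180, 19.01 TPM in LPS and 18.2 TPM in LPS+a-d-dextran, against 0 to 0.06 TPM in the LPS+IL4, LPS+IL21, aCD40+IL4 and splenic B libraries and 48894 TPM in skin. Krt83, one of these genes, had 8.77 TPM in Tfh and 8.18 TPM in Tfh MUT, where Hoxc13 was at 0. It was the 1 hair follicle gene tested in sorted against CD4+ T cells and was higher (log2 fold change 7.89 ± 0.80, edgeR adjusted p = 0.002), with 0 and 0.02 TPM in CD4+ T cells. Without the Tfh MUT and Tfr libraries, which leaves 1 Tfh and 1 Tfr library, the fitted change of Krt83 was 7.99.

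Lck, a T-cell kinase gene, was at 104 TPM in CH12, where Cd3e was at 0.02 TPM.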
